A study of Mus musculus with 14 samples.

Results

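RNA sequencing measured 63244 transcripts in mouse carotid artery. Described here are 52 of those that stood higher with rosiglitazone than with its solvent in every one of 7 pairs of libraries. They were chosen by their own values: a mean of at least 5 TPM over 14 libraries, a log2(TPM + 1) difference (rosiglitazone minus DMSO, called the change below) above 0 in each pair, and a mean change over pairs of at least 0.4. TPM is the share of a transcript among all transcripts of a library, scaled to one fixed total. Of the 12669 rows with a mean of at least 5 TPM, 54 (0.426%) met these conditions. The 2 rows uc008opl.2 and uc008tlz.1, which held places 1 and 9 among the 54 with mean changes of 1.62 and 0.85, were left out by the rule. Because the change chose the members, its sizes are given as a description, without a test.

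All mice were male C57BL/6J and either wild type (WT) or knock-out (KO) for RBP7. Exposure was to rosiglitazone at 10 µM or to DMSO, for 24 h. The design text has it applied to arteries after removal, and the sample labels to mice. WT gave 3 DMSO and 3 rosiglitazone libraries, and KO gave 4 of each. No label states ages, the cells that lack RBP7, or whether replicates were separate animals, so p-values measure only the spread between these libraries, which may be technical. A pair is the DMSO and the rosiglitazone library of 1 genotype that share a replicate number, and the labels do not say what a number stands for.

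Rosiglitazone is a thiazolidinedione that activates PPARγ, a nuclear receptor which binds DNA with the retinoid X receptor and turns on genes of fat storage and fatty acid use. In the vessel wall PPARγ acts in endothelial and smooth muscle cells, and it is most abundant in adipocytes, which also surround many arteries. RBP7 is a cytosolic retinol-binding protein found in adipose tissue and microvascular endothelium. The deposited identifiers are not paired with genes in the file, and 0 of 63244 matched the 8 reference tables searched. The members therefore carry no gene names, roles or sequences here, and the level of RBP7 and markers of the arterial cell types were not analysed here. Members are numbered 1 to 52 by mean change, largest first, and identifiers are printed for members 1 and 2.

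Since whole arteries were sequenced, more cells of a type and more RNA per cell cannot be told apart.

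TPM keeps no read depth, so the precision of single values is unknown. The 2 most abundant transcripts held between 33.2% and 48.8% of all TPM. The lowest shares, 33.2% with DMSO and 37.5% with rosiglitazone, belonged to the KO libraries of replicate number 4, in which 27686 and 26716 transcripts reached 1 TPM, more than in any other library (23996 to 26179). When that pair was left out, 67 rows met the conditions, 49 of them members.

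Most members rose by well under 1 on the log2 scale. The mean change ranged from 0.40 to 1.32 with a median of 0.55, against a median of -0.05 over all 12669 rows. It was at least 1 in 6 members and below 0.6 in 30. The ratio of the mean TPM over the 7 rosiglitazone libraries to that over the 7 DMSO libraries ran from 1.34 to 2.67, with a median of 1.51. The SD of the change over the 7 pairs had a median of 0.35.

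**Figure D1:**
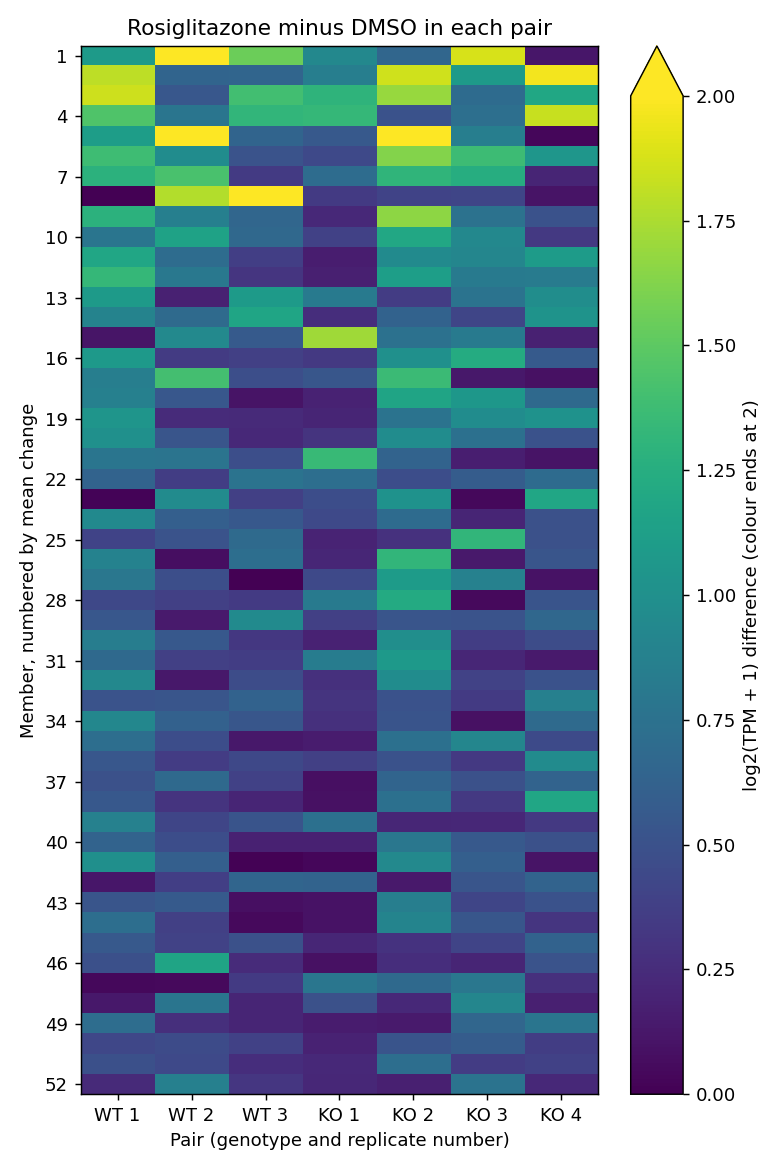
Change in log2(TPM + 1), rosiglitazone minus DMSO, of the 52 members (rows, largest mean change at the top) in the 3 WT and 4 KO pairs (columns), with colours that end at 2. All fields are above 0 by the choice of members; the KO 1 column is the darkest, with a median of 0.32, and the WT 1 and KO 2 columns are the lightest, with medians of 0.78 and 0.74.

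Member 1, uc012apl.1, had the largest mean change and one of the least even ones. In order of replicate number, WT had 10.5, 3.70 and 3.99 TPM with DMSO and 23.6, 35.9 and 13.6 TPM with rosiglitazone. In KO it measured 9.97, 20.8, 4.57 and 11.0 TPM with DMSO and 20.0, 33.5, 19.5 and 12 TPM with rosiglitazone. The WT groups did not overlap, whereas the KO groups did, because KO DMSO replicate 2 was above 3 of the rosiglitazone libraries. Its mean change was 1.32 with an SD of 0.93 over 7 pairs, from 0.12 in KO pair 4 to 2.97 in WT pair 2.

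Member 2, uc011zqa.1, was nearly level across WT DMSO at 8.04, 8.20 and 7.73 TPM. With rosiglitazone WT replicate 1 reached 30.5 TPM, and the other two measured 13.4 and 12.7 TPM. In KO it measured 7.58, 8.88, 6.04 and 1.04 TPM with DMSO and 14.5, 34.7, 14 and 6.98 TPM with the drug. The low DMSO value of KO replicate 4 gave that pair the largest change, 1.97, although its rosiglitazone value lay below 2 KO DMSO values. The mean change was 1.27 with an SD of 0.59 over 7 pairs.

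Members 3 and 4 had means of about the same size with less spread. For member 3 the WT values were 16.6, 19.8 and 20.0 TPM with DMSO and 62.2, 29.3 and 54.4 TPM with the drug. In KO its values were 16.1, 13.5, 12.3 and 19.8 TPM with DMSO and 41.2, 45.7, 20.6 and 46.4 TPM with the drug, so the lowest rosiglitazone library of either genotype was above the highest DMSO library of both. The mean change was 1.24 with an SD of 0.48 over 7 pairs. Member 4 rose from 22.8 ± 11.2 to 50.2 ± 10.2 TPM in WT (SD, n = 3 each) and from 18.4 ± 4.75 to 41.5 ± 14.7 TPM in KO (SD, n = 4 each), and its groups did not overlap within either genotype. WT DMSO replicate 2 was its highest DMSO library at 35.7 TPM, above the KO rosiglitazone libraries of replicates 2 and 3.

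Members 5 to 8 and 10 complete the set of largest mean changes together with member 9, which is described with the abundant members. Member 5 had a mean change of 1.07 with an SD of 0.80, and its smallest change was 0.04 in KO pair 4. Member 6, at a mean of 103 TPM, changed by 1.05 with an SD of 0.45, and member 7 by 0.93 with an SD of 0.51. Member 10 changed by 0.78 with an SD of 0.34, and its lowest rosiglitazone library was above its highest DMSO library.

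Member 8 met the conditions in a way that the mean hides. It was listed at 0 in WT DMSO replicate 1, with 5.46e-06 TPM in the matching rosiglitazone library, and its change of 7.87e-06 there counted as above 0. It was also near 0 in WT DMSO replicate 3 (4.14e-05 TPM) and in KO DMSO replicate 4 (7.16e-06 TPM), where the rosiglitazone libraries had 6.66 and 0.0747 TPM. In the remaining libraries it measured 3.28 TPM (WT) and 6.19, 6.73 and 9.60 TPM (KO) with DMSO, and 13.6 TPM (WT) and 8.08, 9.23 and 13.1 TPM (KO) with the drug. Its mean change of 0.85 had an SD of 1.09, and WT pairs 2 and 3 carried most of it. No other member had a value under 0.1 TPM in any library.

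**Figure D2:**
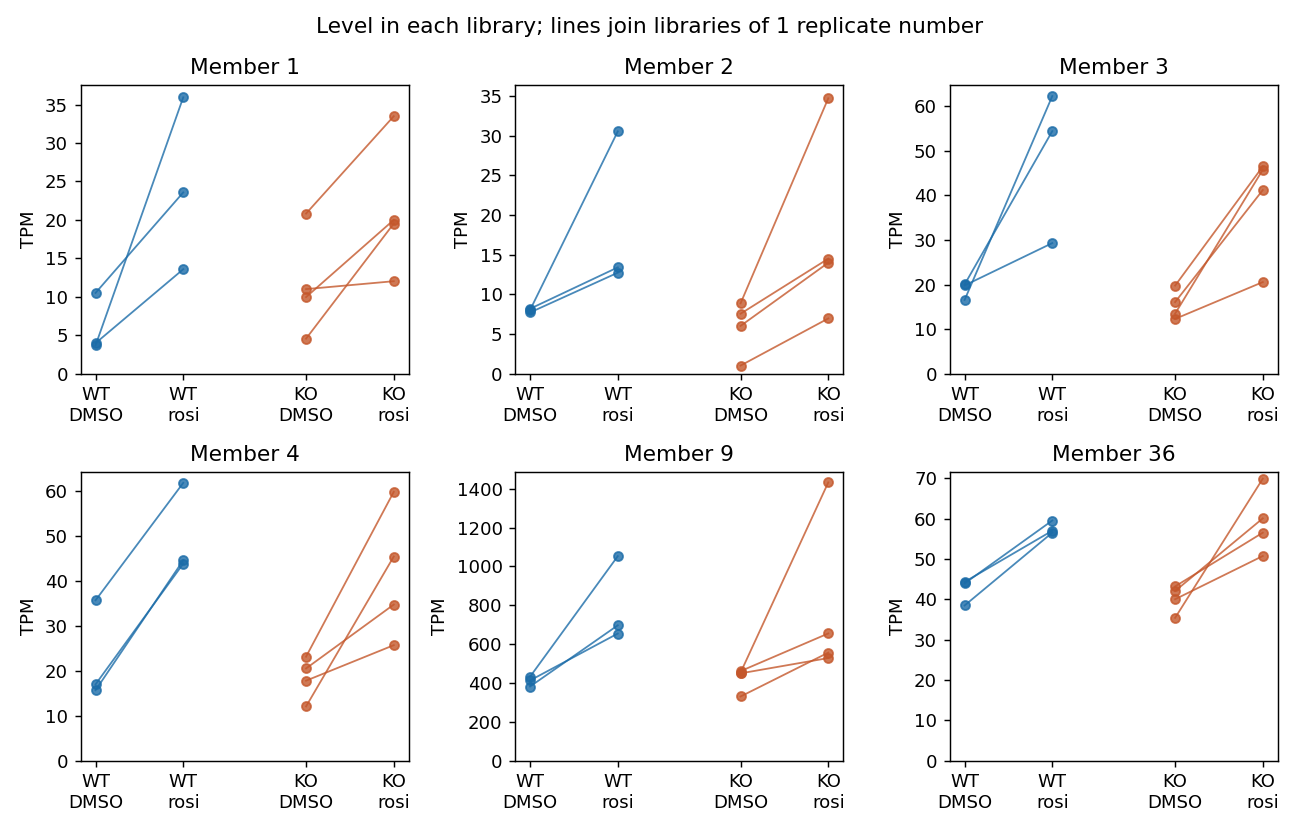
TPM of members 1, 2, 3, 4, 9 and 36 in each of the 14 libraries (points; blue WT, orange KO), with lines joining the DMSO and the rosiglitazone library of 1 replicate number and axes that start at 0. All lines rise by the choice of members, steeply and unevenly in members 1 and 2 and by a like amount in nearly every pair in member 36.

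In 9 members every pair changed by at least 0.3, among them members 2, 3, 4 and 6 with a mean change of at least 1. In WT, member 36 stood at 38.5, 44.3 and 43.9 TPM with DMSO and at 56.5, 57.0 and 59.5 TPM with the drug. In KO it stood at 43.2, 42.1, 40.0 and 35.4 TPM with DMSO and at 56.5, 60.1, 50.7 and 69.9 TPM with the drug. No DMSO library reached any rosiglitazone library, and the mean change was 0.50 with an SD of 0.22 over 7 pairs. Member 22 had a smaller spread around a mean of 0.60 (SD 0.14, from 0.37 to 0.76 over pairs). At the other end, 7 members had at least 1 pair in which the change was under 0.05.

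In 8 members, numbers 3, 9, 10, 13, 35, 36, 40 and 45, all 7 rosiglitazone libraries lay above all 7 DMSO libraries, which 12 of the 12669 rows did (0.0947%). Within WT the 2 groups did not overlap in 30 of the 52 members, within KO in 16, and in both genotypes in 14. The same held for 2.58% of the 12669 rows in WT, 0.466% in KO and 0.166% in both. The choice of members fixed much of this, so nothing is read from the gap between these shares. In 20 members the groups overlapped in both genotypes. That their genotype means were higher with rosiglitazone was fixed by the choice of members.

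By level, the members lay above the other rows that could have been chosen. Their mean TPM ran from 5.02 to 607, with a median of 24.8 TPM against 13.2 TPM over the 12669 rows, and 16 of 52 (30.8%) were at 50 TPM or more, against 12.4% of the rows. Level was itself one of the conditions, and its part in the choice was not tested. The most abundant was member 9. In WT it stood at 432, 381 and 413 TPM with DMSO and at 1053, 696 and 654 TPM with the drug. In KO it stood at 449, 453, 330 and 461 TPM with DMSO and at 528, 1432, 556 and 655 TPM with the drug. All DMSO libraries were below all rosiglitazone libraries, and KO rosiglitazone replicate 2 stood far above the other 3 of its group. The mean change was 0.85 with an SD of 0.48.

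The next most abundant members changed less. Member 37, at a mean of 438 TPM, changed by 0.49 (SD 0.21 over 7 pairs), member 24 at 283 TPM by 0.56 (SD 0.23), member 33 at 282 TPM by 0.52 (SD 0.19) and member 11 at 242 TPM by 0.77 (SD 0.38). Summed over the 52 members, the share of all TPM was between 0.231% and 0.310% in the DMSO libraries and between 0.356% and 0.617% in the rosiglitazone libraries.

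The 7 pairs did not contribute alike. The median change of the members was 0.78, 0.54 and 0.41 in WT pairs 1, 2 and 3 and 0.32, 0.74, 0.58 and 0.51 in KO pairs 1 to 4. Over all 12669 rows the medians were 0.05, -0.09 and -0.10 in WT and -0.16, 0.02, -0.04 and -0.06 in KO, so WT pair 1 and KO pair 2, where the members rose most, were also the pairs with a median above 0 over all rows. The share of the 2 most abundant transcripts moved the other way. It was lower with rosiglitazone in WT pair 1 (46.0% with DMSO, 44.2% with the drug) and KO pair 2 (45.1% and 41.8%), and it was higher in KO pair 1 (41.9% and 48.5%). Its part in the members' changes was not tested.

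KO rosiglitazone replicate 2 was the highest of all 14 libraries for 24 of the 52 members, and KO DMSO replicate 3 the lowest for 18. By the rule, the highest library of a member is always a rosiglitazone library and the lowest a DMSO library. The smallest change fell in KO pair 1 for 16 members and the largest in KO pair 2 for 14. For these counts no share over all rows was taken. Among the KO pairs alone, pair 2 changed most in 44.2% of members and 37.1% of all rows. In 17 members (32.7%) WT pair 1 changed most among the WT pairs and KO pair 2 most among the KO pairs, an arrangement that 21.3% of all rows had too. Their medians were 0.89 in WT pair 1 and 1.07 in KO pair 2, which are high by this choice, and 0.32 in WT pair 3 and 0.23 in KO pair 1.

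Members 16, 19 and 38 stood within 3 rows of each other in the deposited table, and no other members lay within 5 rows of one another. Member 38 was the most abundant of them, with 234, 235 and 179 TPM under DMSO and 342, 291 and 207 TPM under the drug in WT. In KO it had 166, 247, 95.8 and 50.8 TPM under DMSO and 177, 412, 121 and 116 TPM under the drug. Member 16 ran from 34.2 to 69.0 TPM over the 7 DMSO libraries and from 50.1 to 139 TPM over the 7 rosiglitazone libraries, and member 19 from 23.0 to 62.2 TPM and from 34 to 106 TPM. KO replicate 2 was the highest library of each treatment in all 3 of them. Other rows near them with a mean of at least 5 TPM did not all rise: 3 such rows within 5 places had mean changes of 0.31, 0.47 and -0.40, with 5, 5 and 1 of the 7 pairs above 0. Whether the 3 members share reads or belong to 1 gene was not analysed here, so they may not be 3 separate readings. No member had the same values as another row of the table.

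Just inside the limit on the mean change were values of 0.418, 0.413 and 0.402, and just outside it, among rows above 0 in every pair, 0.399, 0.394 and 0.393. A further 77 rows rose in all pairs with a mean below 0.4. The lowest mean levels among the members were 5.02, 5.19 and 5.47 TPM, and the highest among rows that missed only the limit on level were 4.60, 4.50 and 4.33 TPM. Of 265 rows with a mean change of at least 0.4, 60 rose in 6 pairs and missed 1, most often KO pair 1 (13 rows) and least often KO pair 2 (3 rows).

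The number of members was set beside the same count for other directions of the pairs. Each of the 7 pairs can be taken as higher or lower, and the pattern with all pairs higher held 54 rows before the 2 were left out. The other 127 patterns, given as a description with no test, held a median of 13 rows, from 5 to 202, and 5 of them held at least 54. The most, 202, came from the mirrored pattern, in which rosiglitazone was lower in all pairs. Both counts depended on the scaling of TPM. With the 2 rows left out, 124 rows met the conditions and 81 the mirrored ones after median-of-ratios scaling, and 89 and 100 after quantile normalization. The mirrored count was thus still the larger after quantile normalization, but not after median-of-ratios scaling. Counts under these scalings are given for these 2 patterns only. Without the limit on size, 131 rows were higher in all pairs, a number that 28 of the other 127 patterns reached (median 58), and 725 were lower in all pairs. These became 618 higher and 224 lower after median-of-ratios scaling, and 378 and 321 after quantile normalization. Under these scalings 50 of the 52 members kept a change above 0 in all pairs, the exceptions being members 23 and 47, and all 52 kept a mean above 0.

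The change could be read in libraries that had no part in the choice by choosing on 6 pairs and reading the seventh. The level condition still used all libraries. With KO pair 2 left out, 53 rows were chosen, and 49 (92.5%) of them were above 0 in that pair, against 52% of all 12669 rows. With KO pair 1 left out, 87 rows were chosen and 57 (65.5%) were above 0 in it, against 25.6% of all rows. The other five left-out pairs gave between 73.3% and 85.0% of the chosen rows, against 33.7% to 57.8% of all rows.

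The size of the change in the left-out pair was smaller than in the pairs that chose the rows for 5 of the 7 pairs. Its median was 0.60, 0.42 and 0.31 in WT pairs 1, 2 and 3, where the choosing pairs had 0.54, 0.58 and 0.54. It was 0.18, 0.66, 0.36 and 0.33 in KO pairs 1 to 4, where the choosing pairs had 0.56, 0.54, 0.61 and 0.54. A change of 0.4 or more was found in the left-out pair for between 23.0% (KO pair 1) and 71.7% (KO pair 2) of the chosen rows, and for 5.15% and 12.4% of all rows in those pairs. The choice itself makes a smaller change likely in the pair left out. The 7 readings share libraries in their choices and rows are not replicates, so no test is given.

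**Figure D3:**
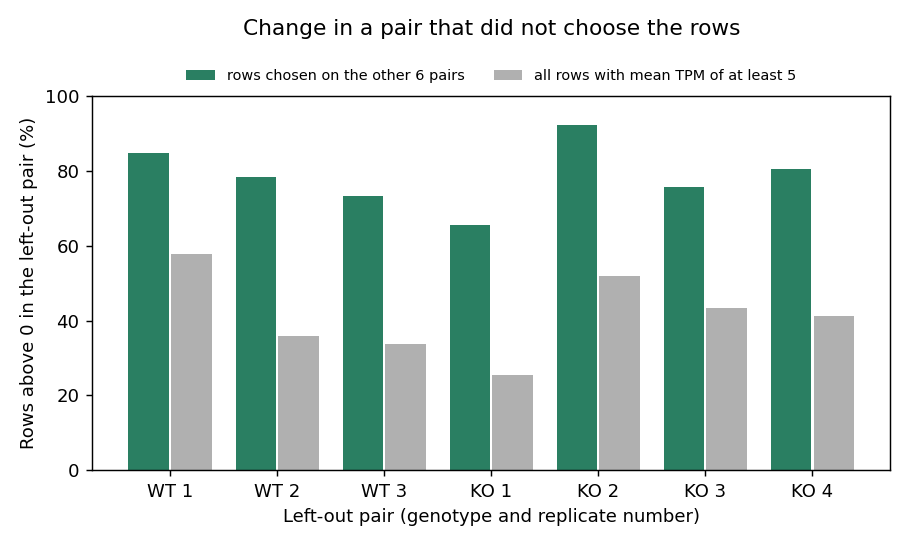
Percentage of rows with a change above 0 in the pair named on the horizontal axis, for rows chosen on the other 6 pairs (green bars, 53 to 87 rows) and for all 12669 rows with a mean of at least 5 TPM (grey bars). The green bar is above the grey one in each pair, with the lowest value at 65.5% in KO pair 1 and the highest at 92.5% in KO pair 2.

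The same conditions were applied to 1 genotype and read in the other, which shares no libraries with it. The 3 WT pairs alone chose 240 rows. In KO the median of their mean change over 4 pairs was 0.13, against -0.06 over all rows, and 56 (23.3%) were above 0 in all 4 KO pairs, against 3.17% of all rows. The 4 KO pairs alone chose 129 rows, whose median mean change in WT was 0.29, against -0.05 over all rows, and 49 (38%) were above 0 in all 3 WT pairs, against 8.56%. In both directions the change in the genotype that was only read was smaller than in the one that chose the rows, where the medians were 0.57 in WT and 0.58 in KO. The choice itself makes a smaller change likely where rows were only read, so nothing about genotype is read from this.

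Whether the members responded differently in KO and WT was tested as an interaction with limma over all 29304 transcripts that had at least 1 TPM in at least 3 libraries, a filter that all 52 members passed. No member passed an adjusted p of 0.05, where 2 of the 29304 transcripts (0.00683%) did, and 0 members had an unadjusted p under 0.05, against 2.14% of all transcripts. The KO change was below the WT change in 26 members and above it in 26. The median difference was 0.01, against -0.02 over all transcripts, with a median SE of 0.36. This fit took the libraries as independent, although the members were chosen by pairs. With replicate numbers as a random block, 1 member had an unadjusted p under 0.05, as did 1231 transcripts in place of 627. No member passed the adjusted test there. The rule requires a change above 0 in both genotypes and so bounds these differences.

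**Figure D4:**
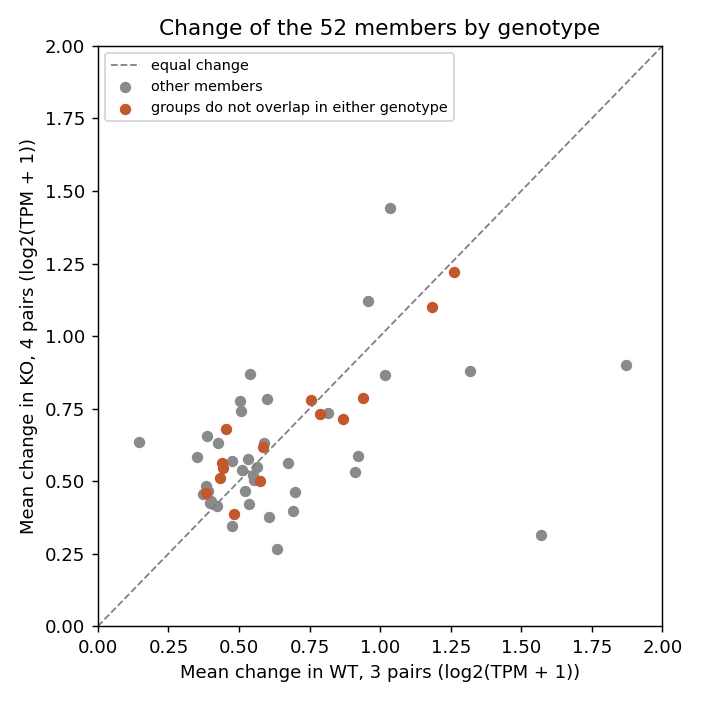
Mean change of each of the 52 members in WT (horizontal axis, 3 pairs) and in KO (vertical axis, 4 pairs), in log2(TPM + 1), with the dashed line of equal change. Orange points are the 14 members whose groups do not overlap in either genotype, and 26 points lie on each side of the line.

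The members with the 3 largest differences in response in each direction were as follows. Member 8 changed by 1.57 in WT and 0.31 in KO (difference -1.25, SE 1.55), member 1 by 1.87 and 0.90 (difference -0.97, SE 0.67) and member 5 by 1.32 and 0.88 (difference -0.44). In the other direction member 47 changed by 0.14 in WT and 0.63 in KO (difference 0.49, SE 0.26), member 2 by 1.04 and 1.44 (difference 0.41) and member 15 by 0.54 and 0.87 (difference 0.33, SE 0.46). The adjusted p of limma's interaction test was 1.00 for each of these 6 members.

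The level of the members, averaged over both treatments, was compared between genotypes in the same model, a contrast that had no part in the choice. No member differed between KO and WT at an adjusted p of 0.05, where 17 of the 29304 transcripts (0.058%) did, 5 higher and 12 lower in KO. After quantile normalization 11 were higher and 16 lower. At an unadjusted p under 0.05 there were 2 members (3.85%), against 5.09% of all transcripts. Of the 52 members, 25 had a higher and 27 a lower mean in KO, and the median difference was -0.02, against 0.06 over all transcripts. Member 48 was the lower one of the 2, with 6.10 ± 1.42 TPM in KO (SD, n = 8) and 8.19 ± 1.88 TPM in WT (SD, n = 6), a log2 difference of -0.37 (SE 0.13, adjusted p = 0.891). Member 27 was the higher one, with 33.5 ± 12.8 TPM in KO (SD, n = 8) and 22.0 ± 8.95 TPM in WT (SD, n = 6), a log2 difference of 0.57 (SE 0.23, adjusted p = 0.891).

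Within KO, the sample numbers in the labels fall into 2 ranges, 2 to 5 (replicates 1 and 2) and 18 to 21 (replicates 3 and 4), each with both treatments. No label explains the numbers. The WT libraries carry the numbers 6 to 11, so genotype and sample number cannot be told apart, with or without the range 18 to 21. Only KO has the higher range, so it is part of the difference between all KO and all WT libraries. Without the 4 libraries of that range, 33 of the 52 members were higher in KO, with a median of 0.07 against 0.00 over all transcripts, so the sign of the members' median turned, and no member passed the adjusted test. The ranges were compared with limma over the 8 KO libraries, with treatment in the model. No member passed an adjusted p of 0.05, where 27 of the 29304 transcripts (0.0921%) did, 9 higher and 18 lower in the range 18 to 21. After median-of-ratios scaling the split was 14 higher and 66 lower, with no member among them, and after quantile normalization 16 and 67. At an unadjusted p under 0.05 there were 21 members (40.4%), 10 higher and 11 lower, against 10.3% of all transcripts. The 21 fell to 13 without KO DMSO replicate 2 (2185 of 29082 transcripts at that p) and to 13 without KO DMSO replicate 4 (2272 of 28834). They rose to 24 without KO rosiglitazone replicate 1 (2426 of 29150). Leaving out any other 1 KO library gave 14 to 16 members, with 2273 to 3992 transcripts at that p. Among transcripts with a mean of at least 5 TPM, the level of the members, 20 members and 1676 of 12669 transcripts reached that p. Each range holds 2 replicate numbers, and its libraries were taken as independent. With replicate numbers as a random block 12 members reached it (1660 of 29304 transcripts). Whether the choice of members bears on the spread in this fit was not tested.

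Differences between the ranges ran from -1.35 to 1.07, and those between genotypes from -0.72 to 0.97. The members' median between the ranges was -0.17 where that of all transcripts was 0.13, and after median-of-ratios scaling, which brought the median of all transcripts to 0.01, it was -0.32. Of the 16 members at 50 TPM or more, 13 were lower in the range 18 to 21, with a median of -0.32, and of the 36 below that level 18 were. Among all transcripts tested, 709 of 1565 at 50 TPM or more were lower (45.3%, median 0.02), as were 3182 of 11101 at 5 to under 50 TPM (28.7%). Member 37 measured 331 ± 86.2 TPM in the range 18 to 21 and 505 ± 92.0 TPM in the range 2 to 5 (SD, n = 4 each), a log2 difference of -0.62 (SE 0.14, adjusted p = 0.192). Member 38, one of the 3 neighbouring rows, measured 96.0 ± 32.0 and 251 ± 114 TPM (SD, n = 4 each; log2 difference -1.35, SE 0.30, adjusted p = 0.192). Member 50 was higher in the range 18 to 21, at 25.5 ± 5.45 against 16.9 ± 3.94 TPM (SD, n = 4 each; log2 difference 0.56, SE 0.15, adjusted p = 0.283).

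**Figure D5:**
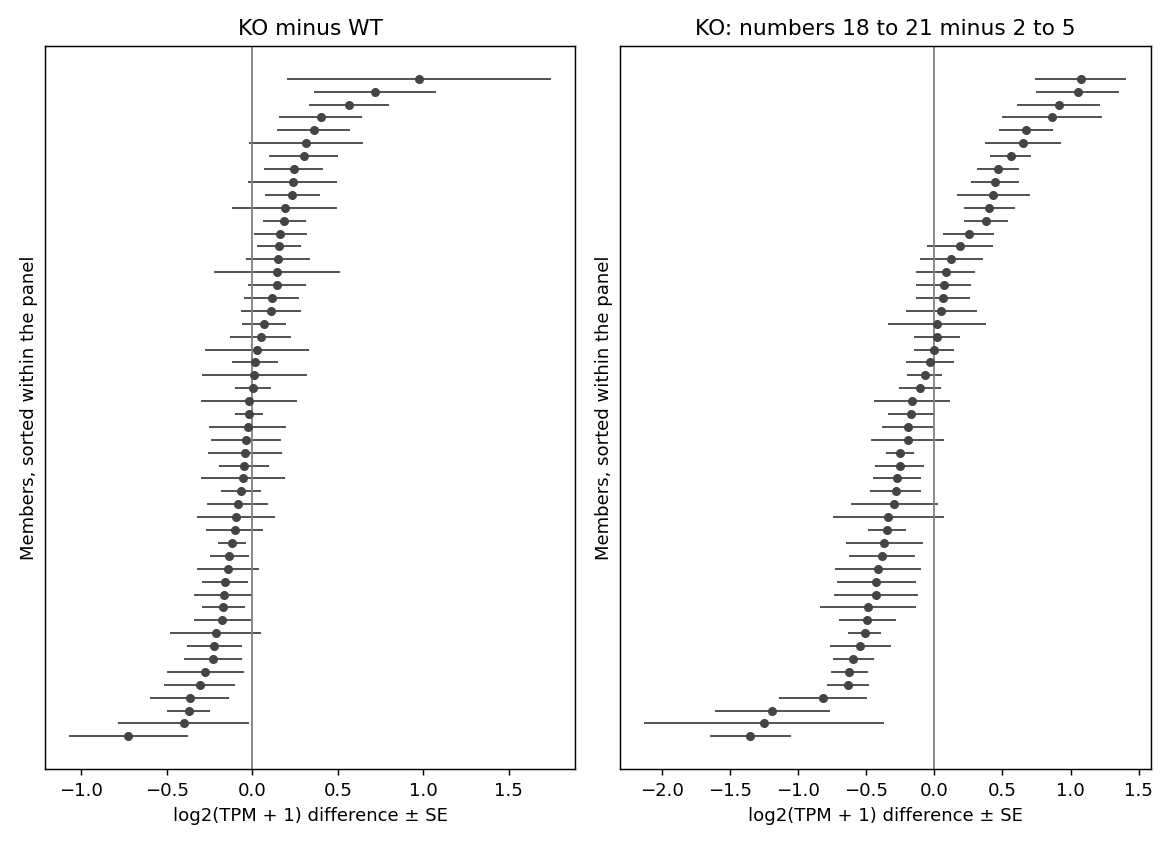
Log2(TPM + 1) difference of each of the 52 members between KO and WT (left, 14 libraries) and between the KO sample-number ranges (right, 8 libraries), sorted within each panel, with bars of 1 SE. The points run from -0.72 to 0.97 on the left and from -1.35 to 1.07 on the right.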

How the data were processed

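The values analysed are TPM as deposited by the authors, for 63244 transcripts in 14 libraries whose totals agree. Tools named by the submitters' processing notes are kallisto, sleuth and FastQC, with GRCm38 and mm10 as builds and no roles. Versions, annotation and strand setting: not given in the sources used here. Per the labels' protocols, libraries were made from total RNA extracted with Trizol. Each column name gave the sample number that a label also carries, and 0 columns were unmatched. TPM keeps no depth, so no counting interval can be given.

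Values were taken as log2(TPM + 1), a scale that understates changes of low transcripts. Tests were two-sided moderated tests of limma 3.58.1 in R 4.3.3, with a mean per group, a variance trend on abundance and Benjamini-Hochberg adjustment over the 29304 transcripts that reached 1 TPM in 3 or more libraries. The tests were tested on simulated data. That simulation drew each library independently, so it did not cover libraries that vary together by replicate number. Counting and plotting used Python 3.11.15 with matplotlib 3.10.9.

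The members, the contrasts and the alternatives were chosen with earlier results of these data known. Members to describe were taken by a fixed rule: the largest mean changes, the most abundant, the extremes of the difference in response and those next to the limits. Members 22 and 36, members 16, 19 and 38, the examples under genotype and sample number, and the counts by pair were chosen after their values were seen. Identifiers without a gene are printed for 2 members only. Gene and cell type lists could not be used, since 0 identifiers matched a gene.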

Additional observations from a re-analysis of the deposited data

Results flagged for a closer look

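In 20 sets of 4 KO values (members 1, 2, 3, 4, 8, 9, 16, 19 and 38 and the sum over all members, in each treatment), the gap of the highest or lowest library to its neighbour was taken as a share of the whole spread of that set. In 4 sets it passed Dixon's critical value at 95%. Chance passes it in about 1 in 20 groups, and these sets share libraries. For member 9, KO DMSO replicate 3 stood apart as the lowest (ratio 0.912), and KO rosiglitazone replicate 2 as the highest (0.860). For member 16, KO DMSO replicate 2 was the highest (0.847). For the summed TPM of the 52 members, KO rosiglitazone replicate 2 was the highest (0.848), at 6171 TPM against 3556 to 3955 TPM in the other 3. Without KO pair 2, 53 rows met the conditions, 47 of them members.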

How the results depend on the processing

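The number of members, 52, depended on its limits by construction: it was 88 with a mean of at least 1 TPM, 101 with a mean change of at least 0.2 and 22 with at least 0.6. It was 124 with median-of-ratios scaling and 89 with quantile normalization, 50 of the members among them each time. Left-out pairs gave 53 to 87 rows, the most without KO pair 1, and 97 met the conditions without the KO pairs numbered 18 to 21 (44 of the members). With groups in place of pairs (no replicate block), that is no overlap within either genotype, 14 rows remained. Rows without overlap rise in every pair, so all 14 are members by construction.

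Members called stayed at 0 in all 23 alternatives for genotype and for the interaction and in all 22 for the number range. There the smallest adjusted p of any member ran from 0.602 to 1.00 for genotype and from 0.0561 to 0.603 for the number range, and rounded to 1.00 throughout for the interaction. The rule bounds the members' differences in response, so nothing is read from the count of 0 for the interaction.

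Calls over all transcripts moved, and the causes were not tested. For genotype (17) they were 27 with quantile normalization, 8 among transcripts with a mean of at least 5 TPM (fewer tested) and 12 to 17 without 1 library. For the interaction (2) they were 4 with a pseudocount of 0.1, 1 with 5, 5 without a filter, 1 at a mean of at least 5 TPM, 6 without the libraries numbered 18 to 21, 5 without both KO libraries of replicate number 4 (added after seeing the data) and 2 to 6 without 1 library (4 without WT DMSO replicate 1, 6 without KO rosiglitazone replicate 4). For the number range (27) they were 80 with median-of-ratios scaling, 83 with quantile normalization, 48 at a mean of at least 5 TPM and 5 to 30 without 1 library, the fewest without KO rosiglitazone replicate 1. They were 6 to 8 without any 1 KO DMSO library, 15 without KO rosiglitazone replicate 3 and 12 without replicate 4.

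Replicate numbers as a random block gave 11 calls for genotype, 4 for the interaction and 5 for the number range, where 12 members in place of 21 had an unadjusted p under 0.05 (1660 in place of 3019 transcripts). Deviations of same-numbered libraries from their group means correlated at 0.07 to 0.22 over transcripts in the 7 pairs, over 0.1 in 4 of them. The median for other numbers was -0.06, and deviations within a group sum to 0, which ties the 2 kinds of value together. For KO replicates 1 and 2 the same-numbered libraries did not correlate most. DMSO replicate 2 with rosiglitazone replicate 1 gave 0.109, and DMSO replicate 1 with rosiglitazone replicate 2 gave 0.089. The same-numbered values were 0.072 for replicate 1 and 0.086 for replicate 2, so these correlations do not single out the pairing used there. Limma's estimate of the correlation within a replicate number was 0.34 over all libraries and 0.36 over the KO libraries. The main tests did not use the numbers as pairs, whereas the choice of members did. The mean change of a member does not depend on the pairing, and the condition of a change above 0 in each pair does.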
